A study of Mus musculus with 40 samples.

Results

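The Cyp2 family of cytochromes P450 was followed in mouse liver across 8 dose groups of TCDD, the dioxin 2,3,7,8-tetrachlorodibenzo-p-dioxin. Members were taken by gene symbol, Cyp2 followed by a subfamily letter and a number, with pseudogenes left out and at least 100 reads summed over the 40 libraries. Of 49 such symbols 37 reached that minimum, out of 55359 gene identifiers in the count files. The members were 4 Cyp2a, 3 Cyp2b, 13 Cyp2c, 7 Cyp2d and 3 Cyp2j genes, with 1 gene in each of the subfamilies Cyp2e, Cyp2f, Cyp2g, Cyp2r, Cyp2s, Cyp2t and Cyp2u. The member nearest the minimum was Cyp2t4 with 173 reads, and the symbol just under it was Cyp2j8 with 89 reads. Cyp2t4 was too low for the test across genes (5.4 reads per library in vehicle mice and 4.8 at 30 μg/kg), so the tests covered 36 members.

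All mice were male C57BL/6 mice that received 7 gavages of sesame oil spaced 4 days apart, in a study that per the labels ran from an age of 30 to 58 days, when livers were taken. The oil held no TCDD (vehicle), a low dose of 0.03, 0.1 or 0.3 μg TCDD per kg body weight or a higher dose of 1, 3, 10 or 30 μg/kg, with 5 mice in each group and collection in the first 3 h of the light phase. No group carried a genetic change, only males were studied, and each library was made from the RNA of whole liver of 1 animal. In such bulk RNA, fewer cells of a type and less RNA per cell cannot be told apart.

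Family 2 P450s are haem enzymes of the endoplasmic reticulum that receive electrons from P450 oxidoreductase and, for some reactions, from cytochrome b5. They oxidise drugs, solvents, steroids, bile acids and polyunsaturated fatty acids, and in the liver many of them are held in either the pericentral or the periportal zone of the lobule. Mouse Cyp2 genes lie in tandem clusters of near-identical copies, several of which are made at different levels in males and females, and Cyp2b10 and some Cyp2c genes are textbook targets of the constitutive androstane receptor (CAR, Nr1i3). TCDD itself binds the aryl hydrocarbon receptor (AhR), whose best known liver targets belong to the neighbouring Cyp1 family.

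The clustered members that rose furthest are shown by their start regions, because the near copies Cyp2a4 and Cyp2a5, and likewise Cyp2b9 and Cyp2b13, carry nearly the same letters in front of genes whose levels differed widely. Each run holds the 250 bases before and 50 after the annotated start, from RefSeq on build GRCm38.p6, on the plus strand. In the first 4 runs capitals mark the bases that differ within a pair, and in Cyp2b10 they mark GCGTG, the core letters to which AhR binds, read on either strand. The windows are chr7:26306942-26307241 for Cyp2a4, chr7:26835089-26835388 for Cyp2a5, chr7:26173159-26173458 for Cyp2b9, chr7:26061245-26061544 for Cyp2b13 and chr7:25897408-25897707 for Cyp2b10.
Cyp2a4: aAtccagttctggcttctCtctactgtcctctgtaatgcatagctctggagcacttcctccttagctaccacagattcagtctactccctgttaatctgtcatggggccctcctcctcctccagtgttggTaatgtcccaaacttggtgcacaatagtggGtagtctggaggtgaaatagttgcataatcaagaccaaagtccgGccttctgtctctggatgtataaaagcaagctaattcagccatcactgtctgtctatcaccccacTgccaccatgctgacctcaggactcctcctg
Cyp2a5: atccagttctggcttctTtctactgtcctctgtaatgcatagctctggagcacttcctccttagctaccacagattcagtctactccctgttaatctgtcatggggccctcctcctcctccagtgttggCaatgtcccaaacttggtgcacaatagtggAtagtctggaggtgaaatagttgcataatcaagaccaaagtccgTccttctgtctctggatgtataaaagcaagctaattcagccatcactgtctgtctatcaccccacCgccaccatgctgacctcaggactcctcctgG
Cyp2b9: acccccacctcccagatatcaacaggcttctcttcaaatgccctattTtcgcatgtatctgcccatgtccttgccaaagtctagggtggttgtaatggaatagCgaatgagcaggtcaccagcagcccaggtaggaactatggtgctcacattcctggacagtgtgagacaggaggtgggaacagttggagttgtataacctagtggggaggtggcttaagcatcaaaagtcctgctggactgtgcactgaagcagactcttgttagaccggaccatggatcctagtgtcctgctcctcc
Cyp2b13: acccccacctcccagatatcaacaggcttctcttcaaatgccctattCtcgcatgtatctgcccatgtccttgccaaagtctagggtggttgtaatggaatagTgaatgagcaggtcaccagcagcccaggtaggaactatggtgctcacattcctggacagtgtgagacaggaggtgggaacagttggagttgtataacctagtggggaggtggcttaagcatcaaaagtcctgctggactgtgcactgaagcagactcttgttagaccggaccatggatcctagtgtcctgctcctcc
Cyp2b10: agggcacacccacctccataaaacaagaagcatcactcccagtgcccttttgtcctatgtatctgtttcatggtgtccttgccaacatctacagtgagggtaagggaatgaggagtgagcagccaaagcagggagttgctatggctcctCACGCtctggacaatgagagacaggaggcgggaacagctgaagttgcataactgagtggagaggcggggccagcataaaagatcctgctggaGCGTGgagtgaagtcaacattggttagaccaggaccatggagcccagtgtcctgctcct

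Counted from 1 at the first base of the Cyp2a4 run, the Cyp2a5 window differed from that of Cyp2a4 by C19T, T131C, G161A, G205T and T270C, together with 1 base at each end. In the Cyp2a5 run these substitutions lie 1 base earlier, at 18, 130, 160, 204 and 269. The Cyp2b13 window differed from that of Cyp2b9 by T48C and C104T, at the same positions in both runs. Start regions were given for 31 of the 37 members, and GCGTG on either strand was found in 4 of these (12.9%), against 32.4% of 32851 such windows over all genes. The 4 were Cyp2b10, with the core at 101 and 9 bases before the start, Cyp2j9 at 171 bases before, Cyp2c68 at 130 bases before and Cyp2r1 at 40 bases after. A match describes the letters only. No window of Cyp2a4, Cyp2a5, Cyp2b9 or Cyp2b13 held the core.

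The libraries held 15.5 to 20.97 M reads assigned to genes (median 17.45 M). Known AhR targets marked the treated mice as labelled: 6 of 6 listed targets rose at 30 μg/kg, and Cyp1a1 went from 1.66 to 5767 CPM, the read count scaled to the library's size after TMM correction. The library of replicate 1 at 30 μg/kg stood apart from its group. It lay nearer the vehicle mean than the other 4 mice for 28 of the 31 members that changed at that dose (90.3%), and for 3897 of 6476 changed genes overall (60.2%). The main results at 30 μg/kg are therefore given with and without it. Of the hepatocyte markers, 6 of 6 tested fell at 30 μg/kg (median log2 change −1.56), from a summed 97764 to 119020 CPM in vehicle mice to 28335 to 59738, the highest being replicate 1. The part of hepatocyte RNA content in the results was not tested.

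Levels between genes can be set side by side only per length, here as CPM per kilobase of a gene's annotated exons, merged over all its transcripts. A gene with long extra exons comes out lower by this measure (Cyp2c29 counted 3.06 kb and Cyp2c37 1.82 kb). Places and shares within the family depend on that choice. On that scale Cyp2e1 (ENSMUSG00000025479), which oxidises ethanol and other small solvents, led the family in vehicle livers with 2907 ± 473 CPM per kilobase (SD, n = 5). It stood clear of the next genes in all 5 mice. Cyp2d26 (660), Cyp2c29 (649.9) and Cyp2d10 (602) followed as means, and these neighbours overlapped between mice. Cyp2a5 held place 11 with 208 and Cyp2a4 place 30 with 2.34. At 30 μg/kg the order had changed: Cyp2a5 was first with 2569 ± 1164, Cyp2a4 was second with 933 ± 498 and Cyp2e1 followed with 885. Between mice the levels of Cyp2a4 overlapped those of Cyp2a5 and those of Cyp2e1, but within each mouse Cyp2a5 was above Cyp2a4. Cyp2a5, the coumarin hydroxylase, was above Cyp2e1 in 4 of these mice, while in replicate 1 Cyp2e1 made up 31.3% of the family's summed level per kilobase and Cyp2a5 12.7%.

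Each dose was set against vehicle by edgeR's quasi-likelihood test over 15373 genes. A member was called where its p-value, adjusted by the method of Benjamini and Hochberg over all of these genes, was under 0.05 and its change was at least 1.5-fold. The adjusted p printed beside a change is always that of this test. At 0.03 μg/kg 0 members were called (0.0195% of all genes did). DESeq2 and limma also called none there, and 1 member had an unadjusted edgeR p under 0.05. At 0.1 μg/kg 1 member was called (all genes 0.0976%), at 0.3 μg/kg 1 (0.468%) and at 1 μg/kg 2 (2.78%). At 3 μg/kg 3 members rose (all genes 4.53%) and 1 fell (2.22%). At 10 μg/kg 5 rose (13.6%) and 9 fell (8.13%). At 30 μg/kg 6 of 36 rose (23.2%), 25 fell (18.9%) and 5 were not called. The median member had a log2 change of −1.63 at 30 μg/kg against 0.03 for all genes, while at 10 μg/kg the medians were −0.22 and 0.01.

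Without replicate 1 the count at 30 μg/kg was 6 higher and 27 lower, and with scaling by total counts in place of TMM it was 7 and 21. Within the libraries whose title numbers run to 27 it was 4 and 18, within the remaining libraries 5 and 24, and with these runs as a covariate 6 and 25. At 10 μg/kg the same counts were 4 and 1, then 4 and 6, then 5 and 9, and total counts gave 6 higher and 6 lower. At 30 μg/kg 4 of the 36 members (11.1%) had all 5 mice above every vehicle mouse, against 19.7% of all genes, and 20 (55.6%) had all 5 below, against 17.9%. The 4 were among the 6 called higher and the 20 among the 25 called lower. The vehicle mice are shared by every comparison with vehicle.

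**Figure D1:**
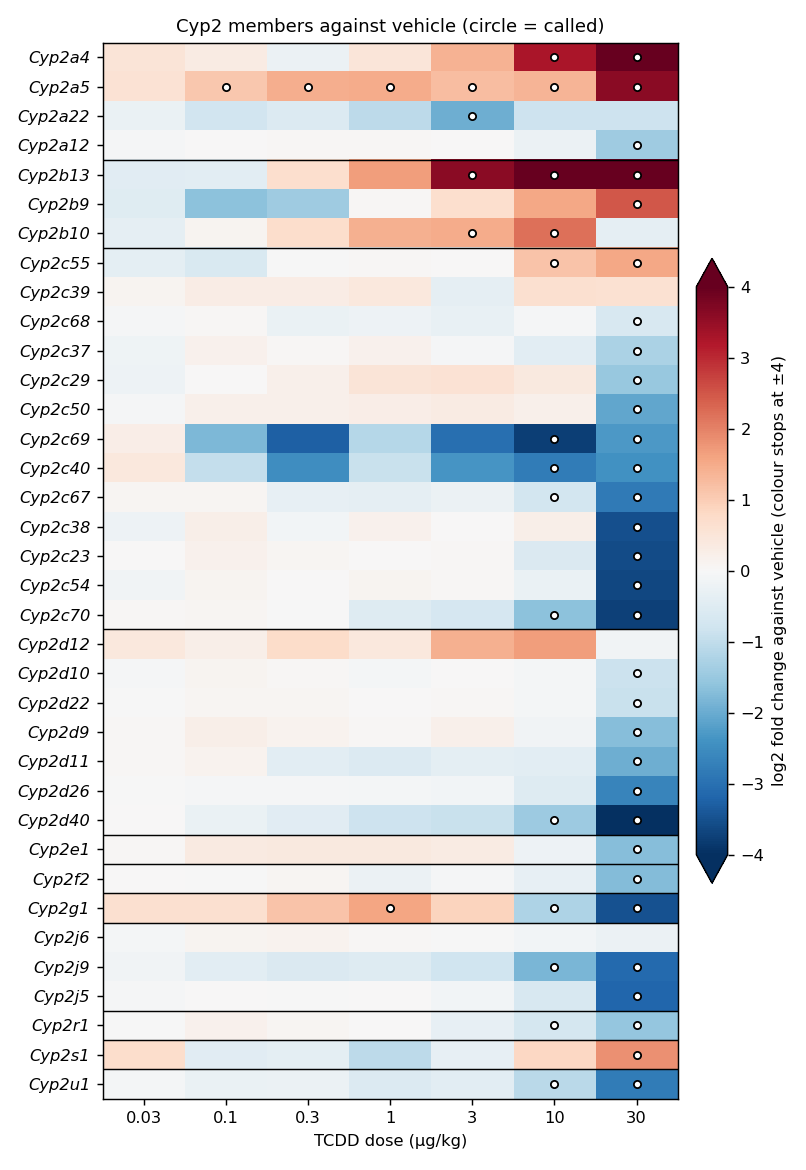
Heat map of the log2 change against vehicle (colour, stopping at −4 and 4) for the 36 tested members (rows) at each of the 7 TCDD doses in μg/kg (columns), 5 mice a group. Circles mark called changes. At 30 μg/kg 6 members are called higher and 25 lower, and the largest rises are those of Cyp2a4, Cyp2b13 and Cyp2a5.

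The steps between neighbouring doses placed most of the movement above 10 μg/kg. No member was called from 0.03 to 0.1 μg/kg (all genes 0.039%), from 0.1 to 0.3 (0.0455%), from 0.3 to 1 (0.241%) or from 1 to 3 (0.0585%). In those steps edgeR gave 2, 1, 0 and 2 members an unadjusted p under 0.05, and DESeq2 gave 2, 2, 0 and 3 but called none after adjustment. From 3 to 10 μg/kg 1 member rose (all genes 4.43%) and 3 fell (2.34%). From 10 to 30 μg/kg 3 rose (10.6%) and 24 fell (10.6%). A linear trend over the ordered doses reached the adjusted p threshold, whatever the fold, for 7 members upwards (31.5% of genes) and 21 downwards (26.1%).

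Cyp2a5 (ENSMUSG00000005547) was the most sensitive member and the only one called at 0.1 μg/kg. Vehicle livers held 347, 448, 446, 395 and 524 CPM, and livers at 0.1 μg/kg held 788, 897, 996, 957 and 903 CPM. The groups did not overlap, and the log2 change was 1.07 (SE 0.23, 2.10-fold, edgeR adjusted p 0.0431). Leaving out 1 library kept the call only without vehicle replicate 5 and lost it without any other library of both groups, with adjusted p of 0.058 to 0.209 and log2 changes of 1.00 to 1.12. From 0.3 to 10 μg/kg the log2 changes of Cyp2a5 were 1.47 at 0.3, 1.5 at 1, 1.24 at 3 and 1.36 at 10 μg/kg (edgeR adjusted p 0.000219, 4.24e-05, 0.000325 and 1.72e-05). A further rise came at 30 μg/kg, where the mice held 1532, 4848, 5549, 6907 and 7796 CPM. Replicate 1 was the lowest of these and still above every vehicle mouse. For Cyp2a5 this was a log2 change of 3.62 (SE 0.25, 12.3-fold, edgeR adjusted p 1.04e-14) and 3.86 without replicate 1, and the step from 10 μg/kg was 2.26 (SE 0.24, edgeR adjusted p 6.43e-09).

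Cyp2a4 (ENSMUSG00000074254), a testosterone hydroxylase that is normally made by female liver, had the widest span of the family. Vehicle mice held 3.58, 14.6, 0.841, 0.840 and 0.501 CPM. Replicate 2 of the vehicle group was well above the other 4. Mice given 10 μg/kg held 44.0, 26.4, 57.0, 57.4 and 13.1 CPM, a log2 change of 3.26 (SE 0.79, 9.59-fold, edgeR adjusted p 0.0013) or 4.68 without vehicle replicate 2, with the lowest treated mouse under the highest vehicle mouse. At 30 μg/kg they held 138, 2306, 2107, 1931 and 1626 CPM. Replicate 1 was again the lowest, and no treated mouse overlapped the vehicle group. The fit gave a log2 change of 8.62 (SE 0.96, 393-fold, edgeR adjusted p 9.98e-10), 8.91 without replicate 1 and 10.04 without vehicle replicate 2. Doses up to 3 μg/kg gave no call for Cyp2a4.

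Because Cyp2a4 and Cyp2a5 are near copies, reads from stretches they share may map to both. Such reads count as multimapping and enter neither gene, and other reads may be placed in the wrong copy. Of all 100-base windows of the annotated Cyp2a5 transcript 12.1% occurred in another gene, 8.08% in Cyp2a4, and 11.2% of the Cyp2a4 windows occurred in Cyp2a5. The ratio of Cyp2a4 to Cyp2a5 counts was 0.000958 to 0.0325 in vehicle livers, 0.0127 to 0.0631 at 10 μg/kg and 0.09 to 0.476 at 30 μg/kg. The vehicle and 30 μg/kg ranges of the ratio did not overlap.

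The Cyp2b genes rose by different routes. Cyp2b13 (ENSMUSG00000040583), a female-biased testosterone hydroxylase, was nearly silent in vehicle livers with 0.547, 0.311, 0.324, 0 and 0.215 CPM, or 11, 5, 5, 0 and 3 reads. At 3 μg/kg the mice held 5.69, 3.28, 0.94, 3.38 and 5.12 CPM, and the log2 change was 3.61 (SE 0.72, 12.2-fold, edgeR adjusted p 0.000655). All 5 mice were above the vehicle range there and at the higher doses. At 30 μg/kg the mice held 15.8, 7.99, 9.23, 24.7 and 47.5 CPM, from 342, 192, 242, 623 and 1127 reads. The fitted change was 6.13 on the log2 scale (SE 0.71, 69.9-fold, edgeR adjusted p 2.54e-09) and 6.21 without replicate 1, a fold that rests on few vehicle reads.

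Cyp2b9 (ENSMUSG00000040660), likewise female-biased, was called only at the top dose in the comparisons with vehicle. Vehicle mice spread widely, with 41.2, 72.7, 6.99, 2.59 and 21.1 CPM. The mice at 30 μg/kg were tight, with 117, 158, 151, 192 and 197 CPM, and none overlapped the vehicle group. Cyp2b9 had a log2 change of 2.49 (SE 0.75, 5.62-fold, edgeR adjusted p 0.00496), 2.59 without replicate 1 and 3.17 without vehicle replicate 2. The 10 μg/kg mice lay between 48.3 and 121 CPM and gave no call (log2 change 1.55, edgeR adjusted p 0.104). Of the Cyp2b9 windows 1.18% occurred in Cyp2b13, while 9.29% of the Cyp2b13 windows occurred in another gene, 8.5% in Gm45225. The Cyp2b13 to Cyp2b9 count ratio moved from 0 to 0.0463 in vehicle mice to 0.0504 to 0.241 at 30 μg/kg.

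**Figure D2:**
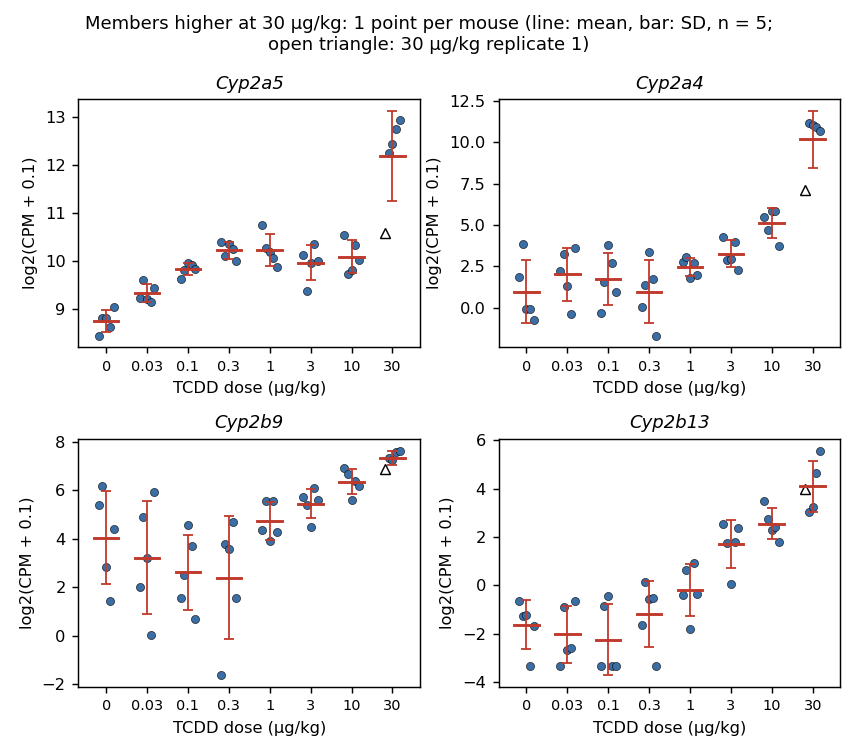
Level of Cyp2a5, Cyp2a4, Cyp2b9 and Cyp2b13 in each mouse, as log2(CPM + 0.1), against TCDD dose in μg/kg, with the group mean and its SD bar (n = 5). The open triangle is replicate 1 at 30 μg/kg, the lowest of its group for Cyp2a4 (138 CPM), Cyp2a5 (1532 CPM) and Cyp2b9 (117 CPM).

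Cyp2c55 and Cyp2s1 completed the members that rose at 30 μg/kg. Cyp2c55, a P450 best known from the large intestine, had 11.0 to 21.6 CPM in vehicle mice and 68.0, 46.2, 45.2, 75.2 and 12.1 CPM at 30 μg/kg. Replicate 5 stayed inside the vehicle range and the other 4 lay above it. Its log2 change was 1.56 (SE 0.28, 2.94-fold, edgeR adjusted p 1.09e-05), after 1.14 at 10 μg/kg (SE 0.28, edgeR adjusted p 0.00144). Cyp2s1, a largely extrahepatic P450, stayed low, at 0.249 to 1.24 CPM in vehicle mice and 0.741, 4.04, 1.53, 2.66 and 3.46 CPM at 30 μg/kg. Its groups overlapped through replicate 1, and its log2 change was 1.84 (SE 0.62, 3.58-fold, edgeR adjusted p 0.0106).

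Cyp2b10 (ENSMUSG00000030483), the standard readout of CAR activity, rose through the middle doses and was no longer called at the top. Vehicle mice held 29.1, 24.8, 11.8, 6.86 and 17.2 CPM. Mice at 10 μg/kg held 116, 64.5, 76.2, 109.5 and 50.9 CPM, and every treated mouse was above the vehicle range. Log2 changes were 1.49 at 3 μg/kg (SE 0.45, 2.81-fold, edgeR adjusted p 0.0258) and 2.21 at 10 μg/kg (SE 0.46, 4.63-fold, edgeR adjusted p 0.000213). At 1 μg/kg all 5 mice were above the vehicle range, between 36.8 and 57.8 CPM, without a call (log2 change 1.41, edgeR adjusted p 0.0696). Leaving out vehicle replicate 3, 4 or 5, or replicate 2 of the 3 μg/kg mice, removed the 3 μg/kg call (log2 changes of 1.29 to 1.47).

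In the 30 μg/kg mice the Cyp2b10 values were 42.1, 5.66, 9.53, 6.67 and 6.66 CPM. Replicate 1 was above every vehicle mouse while the other 4 lay at or under the lower part of the vehicle range. The log2 change of −0.36 was not called (edgeR adjusted p 0.519) and was 0.082 with scaling by total counts, but without replicate 1 it was −1.34 (edgeR adjusted p 0.00422). The step from 10 to 30 μg/kg was −2.57 (SE 0.46, edgeR adjusted p 3.39e-05). None of the Cyp2b10 windows occurred in another annotated gene.

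Cyp2g1 (ENSMUSG00000049685), known from the olfactory mucosa, also turned over, at a very low level. Vehicle mice held 0.796, 1.62, 1.42, 0.350 and 0.716 CPM, from 16, 26, 22, 5 and 10 reads. Mice at 1 μg/kg held 2.61, 4.30, 2.02, 2.64 and 3.10 CPM, from 44, 72, 32, 48 and 55 reads, all above the vehicle mice. The log2 change there was 1.57 (SE 0.43, 2.97-fold, edgeR adjusted p 0.0271), a call lost without vehicle replicate 1, 4 or 5 or without replicate 2 or 5 of the dose. It had turned to −1.23 at 10 μg/kg (SE 0.47, edgeR adjusted p 0.0443), with overlapping groups, and that call was lost without vehicle replicate 2 or 3 or replicate 2, 3 or 4 of the dose (−0.96 to −1.10). The 30 μg/kg mice held 1, 0, 6, 0 and 3 reads, and the log2 change was −3.47 (SE 0.56, edgeR adjusted p 2.01e-06), or −4.34 without replicate 3. The steps from 3 to 10 and from 10 to 30 μg/kg were −2.10 (edgeR adjusted p 0.00226) and −2.25 (edgeR adjusted p 0.00343).

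Cyp2c29 (ENSMUSG00000003053), an abundant epoxygenase of arachidonic acid, was called only at the top dose. Vehicle mice held 2151, 1857, 1976, 1620 and 2343 CPM. At 3 μg/kg the mice held 2836 to 3099 CPM, above the vehicle range in all 5, with a log2 change of 0.58 that was not called (edgeR adjusted p 0.287). Top dose mice held 2113, 266, 202, 455 and 467 CPM. Replicate 1 sat inside the vehicle range and the other 4 far under it. Its log2 change was −1.51 (SE 0.33, 2.84-fold lower, edgeR adjusted p 0.000163), −2.52 without replicate 1, and −1.89 for the step from 10 μg/kg (SE 0.33, edgeR adjusted p 2.54e-05).

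**Figure D3:**
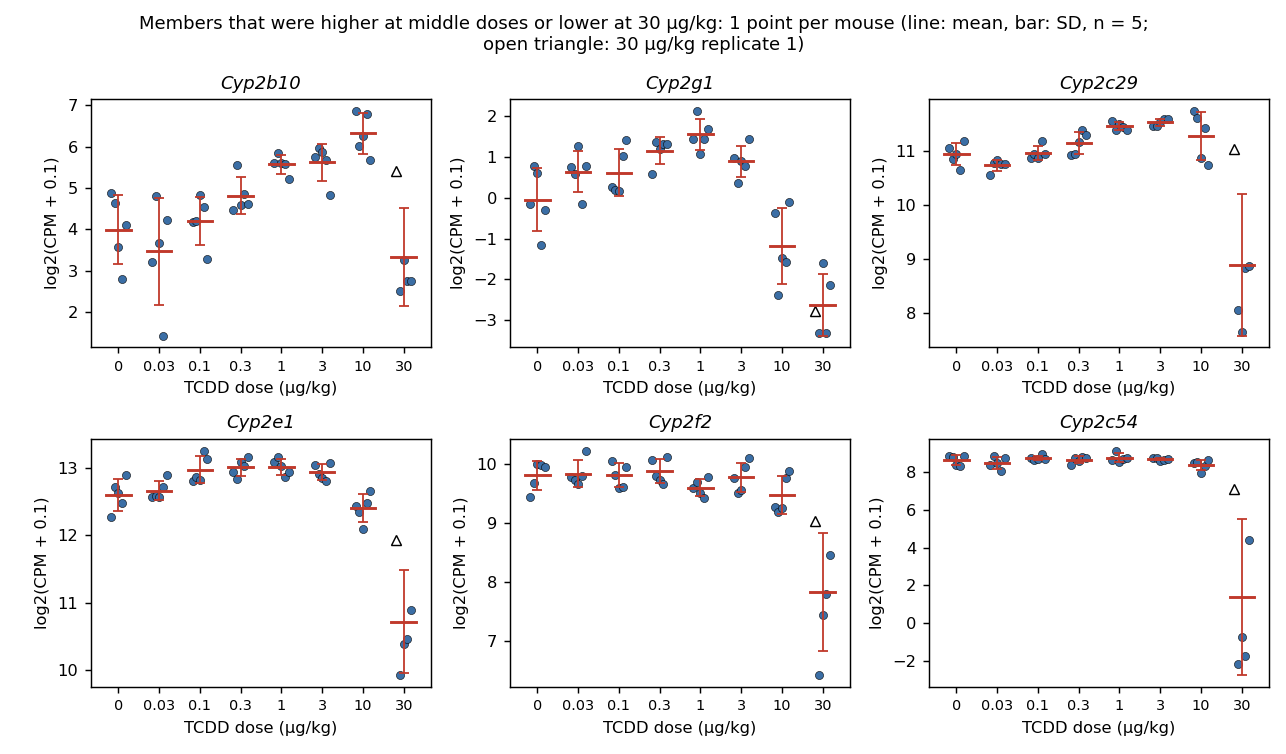
Level of Cyp2b10, Cyp2g1, Cyp2c29, Cyp2e1, Cyp2f2 and Cyp2c54 in each mouse, as log2(CPM + 0.1), against TCDD dose in μg/kg, with the group mean and its SD bar (n = 5). The open triangle is replicate 1 at 30 μg/kg, which lies at 42.1 CPM for Cyp2b10, 2113 for Cyp2c29 and 139.8 for Cyp2c54, far from the other 4 mice.

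The high-level members Cyp2e1 and Cyp2f2 gave no call through 10 μg/kg and fell at 30 μg/kg. Cyp2e1 measured 4951, 6757, 6345, 5688 and 7627 CPM in vehicle mice and 3922, 971, 1337, 1412 and 1904 CPM at 30 μg/kg. Replicate 1 fell least, and no treated mouse reached the vehicle range. Cyp2e1 thus had a log2 change of −1.72 (SE 0.21, 3.29-fold lower, edgeR adjusted p 4.86e-09) and −2.16 without replicate 1, against −0.20 at 10 μg/kg (edgeR adjusted p 0.475). Cyp2f2 (ENSMUSG00000052974), which activates naphthalene and is held in periportal hepatocytes, measured 697, 820, 1025, 1016 and 993 CPM in vehicle mice and 522, 85.2, 174, 222 and 352 CPM at 30 μg/kg. Its groups did not overlap either. The change of Cyp2f2 on the log2 scale was −1.75 (SE 0.25, 3.36-fold lower, edgeR adjusted p 1.65e-07) and −2.13 without replicate 1.

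Among the Cyp2c genes, which include epoxygenases and hydroxylases of fatty acids and bile acids, 11 of 13 fell at 30 μg/kg, Cyp2c55 rose and Cyp2c39 was not called. At that dose 25 of the 36 tested members and 18.9% of all genes fell. Cyp2c70 (ENSMUSG00000060613), which makes the muricholic acids of rodent bile, declined over several doses, with means of 520 ± 48.3 CPM in vehicle, 360 ± 86.0 at 1, 326 ± 50.5 at 3 and 168 ± 29.8 at 10 μg/kg (SD, n = 5 each). It was first called at 10 μg/kg, with all 5 mice below vehicle and a log2 change of −1.63 (SE 0.29, 3.09-fold lower, edgeR adjusted p 2.37e-05). Mice at 30 μg/kg held 93.2, 11.0, 14.9, 38.4 and 38.1 CPM, and the log2 change was −3.73 (SE 0.31, 13.3-fold lower, edgeR adjusted p 8.43e-13). Without replicate 1 it was −4.35.

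Cyp2c54, Cyp2c23 and Cyp2c38, all epoxygenases of polyunsaturated fatty acids, were not called at 10 μg/kg and were among the furthest fallen at 30 μg/kg. Cyp2c54 (ENSMUSG00000067225) measured 460, 446, 330, 326 and 469 CPM in vehicle mice and 139.8, 0.125, 0.496, 0.199 and 21.2 CPM at 30 μg/kg. Replicates 2 to 4 there held only 3, 13 and 5 reads, while replicate 1 held 3021 and replicate 5 held 504. The log2 change was −3.65 (SE 0.77, 12.6-fold lower, edgeR adjusted p 0.000113), and −6.21 without replicate 1, so its size depended on that library. Cyp2c23 (ENSMUSG00000025197) went from 402, 404, 442, 431 and 462 CPM to 127.0, 3.70, 4.35, 8.02 and 36.1 CPM. Its log2 change was −3.58 (SE 0.51, 12.0-fold lower, edgeR adjusted p 1.5e-07) and −5.04 without replicate 1. Cyp2c38 (ENSMUSG00000032808) went from 53.9, 59.3, 37.2, 35.1 and 60.7 CPM to 7.41, 5.12, 2.82, 5.28 and 1.10 CPM, with replicate 1 close to the rest. Its log2 change was −3.51 (SE 0.31, 11.4-fold lower, edgeR adjusted p 4.47e-12) and −3.78 without that mouse.

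The remaining Cyp2c genes fell by less or on weaker ground. Cyp2c67, Cyp2c50 and Cyp2c37 had log2 changes of −2.81, −2.07 and −1.28 at 30 μg/kg, and of −3.21, −3.43 and −1.51 without replicate 1. Cyp2c40 and Cyp2c69 were called at both 10 and 30 μg/kg, but their vehicle mice already spread from 3.01 to 34.4 CPM and from 1.05 to 11.8 CPM, with replicate 2 the highest in both. Without that vehicle mouse the change of Cyp2c40 was −2.21 at 10 and −1.85 at 30 μg/kg, that of Cyp2c69 was −1.54 at 30 μg/kg, and none of these was called, while Cyp2c69 at 10 μg/kg moved from −3.76 to −3.00 and was still called. Cyp2c40 was −4.22 at 30 μg/kg without replicate 1 of the dose. Cyp2c69 also lost its 30 μg/kg call without vehicle replicate 3 and without any of replicates 2 to 5 of the dose, where its log2 change was −1.99 to −2.32, and was −5.66 without replicate 1 of the dose. These genes share sequence: 35.4% of the Cyp2c69 windows, 34.4% of the Cyp2c40 windows, 23.7% of the Cyp2c67 windows and 19.8% of the Cyp2c68 windows occurred in another annotated gene, so their separate values are uncertain. Cyp2c68 fell by 0.64 on the log2 scale with overlapping groups and lost its call without vehicle replicate 2 or without replicate 2 of the dose. With scaling by total counts Cyp2c68 (−0.18) and Cyp2c69 (−1.91) were not called at 30 μg/kg.

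Of the 7 Cyp2d genes 6 fell at 30 μg/kg, where 25 of the 36 tested members and 18.9% of all genes did. Cyp2d40 (ENSMUSG00000068083) had the largest fitted fall of the members with all 5 mice, while without replicate 1 those of Cyp2c54 (−6.21) and Cyp2c69 (−5.66) were larger. Its vehicle mice held 76.9, 80.7, 97.3, 82.3 and 82.2 CPM, and the group mean was 47.1 ± 2.91 at 1, 45.2 ± 10.2 at 3 and 30.4 ± 9.11 CPM at 10 μg/kg (SD, n = 5 each). From 0.3 μg/kg on all mice were below every vehicle mouse, at 1 μg/kg still without a call (log2 change −0.83, edgeR adjusted p 0.302). At 10 μg/kg the log2 change was −1.47 (SE 0.40, 2.76-fold lower, edgeR adjusted p 0.0042). The top dose mice held 18.5, 1.12, 0.763, 1.15 and 4.93 CPM. Replicate 1 was the highest, and the log2 change was −4.01 (SE 0.45, 16.1-fold lower, edgeR adjusted p 1.13e-09), or −5.41 without it. Cyp2d26 (−2.65), Cyp2d11 (−1.95), Cyp2d22 (−0.90) and Cyp2d10 (−0.87) fell less on the same scale. Without replicate 1 these were −3.74, −2.52, −1.0 and −0.97, and with scaling by total counts Cyp2d22 (−0.41) and Cyp2d10 (−0.39) were not called. Cyp2d11 rests on few reads, with 8, 7, 29, 13 and 13 in vehicle mice and 12, 1, 0, 8 and 6 at 30 μg/kg. Its groups overlapped. Cyp2d9, the male-biased member of the cluster, went from 1043 to 1571 CPM in vehicle mice to 726, 195, 294, 340 and 496 CPM, a log2 change of −1.69 (SE 0.22, 3.23-fold lower).

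Outside these clusters, Cyp2j5 (ENSMUSG00000052520), an arachidonic acid epoxygenase, measured 654, 542, 538, 556 and 575 CPM in vehicle mice and 197.1, 24.5, 20.2, 29.8 and 49.5 CPM at 30 μg/kg. All 5 treated mice were below the vehicle range, as they were at 10 μg/kg, where no call was made (log2 change −0.65, edgeR adjusted p 0.114). The top dose log2 change was −3.16 (SE 0.34, 8.93-fold lower, edgeR adjusted p 4.66e-10) and −4.21 without replicate 1. Cyp2j9 moved from 9.02 to 20.1 CPM in vehicle mice to 0.506 to 2.55 CPM (log2 change −3.11) and was called from 10 μg/kg on. So were Cyp2u1, a fatty acid hydroxylase, and Cyp2r1, a vitamin D hydroxylase. Cyp2u1 went from 30.5 to 57.7 CPM down to 3.33 to 10.6 CPM (log2 change −2.81), and Cyp2r1 from 15.6 to 20.1 CPM down to 4.24 to 7.45 CPM (log2 change −1.56). Cyp2a12, a steroid hydroxylase, fell by 1.41 on the log2 scale.

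The 5 members without a call at 30 μg/kg were Cyp2b10, Cyp2a22, Cyp2j6, Cyp2d12 and Cyp2c39. Cyp2j6 was the flattest, at 53.9 to 66.2 CPM in vehicle mice and 48.9 to 59.2 CPM at 30 μg/kg (log2 change −0.23, edgeR adjusted p 0.039), which was under the 1.5-fold minimum and turned to 0.26 with scaling by total counts. Cyp2a22, another steroid hydroxylase of the Cyp2a cluster, was lower only at 3 μg/kg in these comparisons. Vehicle mice held 9.90, 15.3, 3.11, 3.29 and 9.74 CPM and the 3 μg/kg mice 2.60, 1.61, 2.13, 2.45 and 1.92 CPM, all below the vehicle mice. That was a log2 change of −1.95 (SE 0.45, 3.86-fold lower, edgeR adjusted p 0.00305). Its change at 30 μg/kg was −0.81 (edgeR adjusted p 0.0973) and −1.16 without replicate 1 (edgeR adjusted p 0.0225), and leaving out vehicle replicate 3 or 4 also gave a call. Cyp2c39 held 0.860 to 2.30 CPM in vehicle mice and 0.957 to 4.60 CPM at 30 μg/kg, and Cyp2d12 held 0.0622 to 0.839 and 0 to 0.926 CPM. With overlapping groups their log2 changes were 0.62 (edgeR adjusted p 0.160) and −0.13 (edgeR adjusted p 0.894), the latter 0.30 with scaling by total counts.

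The composition of the family was followed as each subfamily's share of the summed CPM per kilobase. All members together took 1.68% ± 0.111 of the gene reads in vehicle mice, 2.13% at 1 μg/kg, 1.82% at 10 μg/kg and 1.61% ± 0.166 at 30 μg/kg (SD, n = 5 each), so that the vehicle range of 1.56% to 1.81% overlapped the top dose range of 1.38% to 1.83%. On the TMM-corrected CPM used for the levels the sum went from 18170 (16281 to 20872) in vehicle mice to 12462 (10006 to 15085) at 30 μg/kg without overlap, so the comparison of the totals depended on the scaling. Within the family, whose shares do not depend on that scaling, Cyp2a transcripts went from 4.65% of the family in vehicle mice to 9.36% at 10 μg/kg and 59.9% at 30 μg/kg. Replicate 1 held 16.2% and the other 4 mice 65.9% to 74.5%. Cyp2a5 alone made up 2.55% in vehicle mice and 47.1% to 52.8% in replicates 2 to 5 at 30 μg/kg, and Cyp2a4 made up 12.9% to 26.7% in those mice. The means of the other large subfamilies were lower at 30 μg/kg than in vehicle mice: Cyp2e from 35.6% to 14.9%, Cyp2c from 26.9% to 9.66%, Cyp2d from 23.5% to 10.8%, Cyp2f from 5.54% to 2.20% and Cyp2j from 3.31% to 0.719%. These means pool unlike mice. Replicate 1 held 31.3% Cyp2e, 25.8% Cyp2c and 18.9% Cyp2d, and its Cyp2c share lay inside the vehicle range of 24.9% to 31.3%. The other 4 mice held 9.05% to 12.2% Cyp2e, 4.53% to 6.83% Cyp2c and 8.01% to 10.3% Cyp2d. Cyp2b went from 0.300% to 1.75%.

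**Figure D4:**
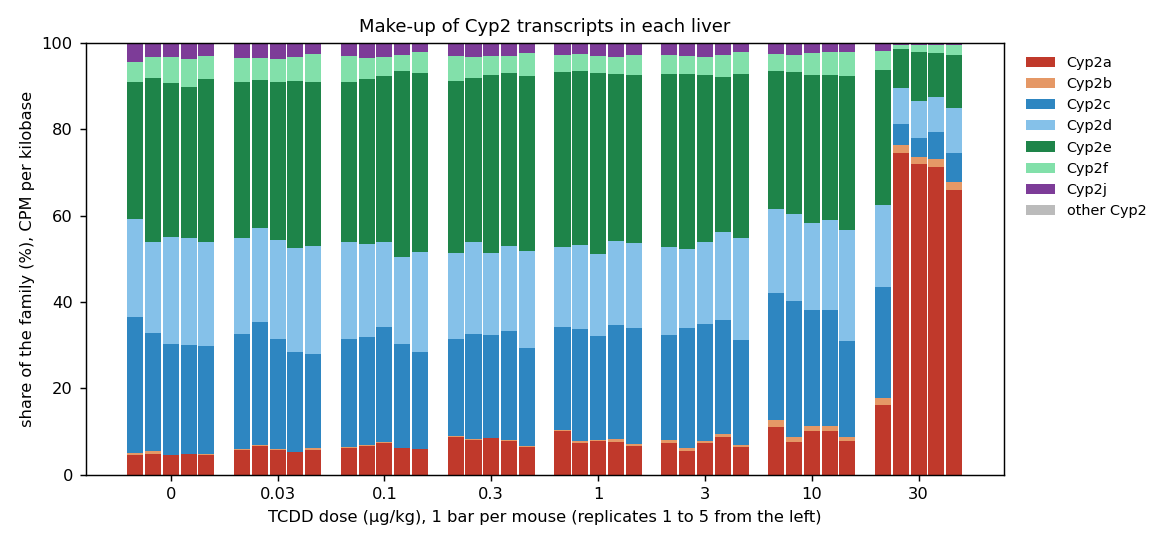
Stacked bars of the make-up of the Cyp2 family in each of the 40 mice, as percent of the summed CPM per kilobase of all members, grouped by TCDD dose in μg/kg and coloured by subfamily. Cyp2a fills 65.9% to 74.5% of 4 bars at 30 μg/kg and 16.2% of the bar of replicate 1, against 4.52% to 4.80% of the vehicle bars.

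By place, 5 of the 6 members that rose at 30 μg/kg lay on chromosome 7, in the cluster that runs in the order Cyp2s1, Cyp2b10, Cyp2b13, Cyp2b9, Cyp2a4, Cyp2g1, Cyp2a5, Cyp2a22, Cyp2a12, Cyp2f2 and Cyp2t4, and Cyp2c55 lay on chromosome 19. The cluster was not uniform, since Cyp2g1 lies between Cyp2a4 and Cyp2a5 and fell, as did Cyp2a12 and Cyp2f2 beyond Cyp2a5. Its members Cyp2b10 and Cyp2a22 were not called. Cyp2r1 and Cyp2e1, also on chromosome 7, fell. Of all genes 23.2% were higher and 18.9% lower at that dose. Whether place went with direction was not tested. The Cyp2d cluster on chromosome 15 and the Cyp2j genes on chromosome 4 held no member that rose.

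By sex bias as generally known for mouse liver, 3 of 5 female-biased Cyp2 genes rose at 30 μg/kg and 2 fell, and the male-biased Cyp2d9 fell. Beside every count here stand 23.2% of all genes higher and 18.9% lower at that dose. The 2 female-biased members that fell, Cyp2c40 and Cyp2c69, lost their calls without vehicle replicate 2. Without replicate 1 at 30 μg/kg both were called, with log2 changes of −4.22 and −5.66 (edgeR adjusted p 0.000288 and 0.0001075). Within the first title-number run alone neither was called. The riser Cyp2b9 was not called there either (log2 change 1.76, edgeR adjusted p 0.142). The risers Cyp2a4 and Cyp2b13 kept their calls at 30 μg/kg in all 20 alternatives. Outside the family, the male-biased list fell in 7 of 7 genes (median log2 change −5.44), from a summed 2328 to 5782 CPM in vehicle mice to 59.5 to 397 CPM. The summed level did not overlap between these groups. Of 3 tested female-biased genes outside the family 1 rose and 1 fell. Cyp3a44 went from 0 to 0.149 CPM in vehicle mice to 0.0381 to 1.39 CPM, a rise that rests on few reads. Cyp17a1 had a log2 change of −0.99, and A1bg was not called.

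The genes that serve P450s moved in both directions. Of 10 tested partners 4 rose and 4 fell at 30 μg/kg, where 23.2% of all genes rose and 18.9% fell. Por, the oxidoreductase that feeds electrons to all microsomal P450s, measured 165, 238, 192, 198 and 290 CPM in vehicle mice and 443, 1129, 1197, 981 and 795 CPM at 30 μg/kg. No treated mouse overlapped vehicle, and the log2 change was 2.07 (SE 0.19, edgeR adjusted p 6.18e-12), first called at 1 μg/kg with 0.71 (edgeR adjusted p 0.0158). Alas1, which starts haem synthesis, rose by 2.42 on the log2 scale, Hmox1, which breaks haem down, by 3.84, and Ephx1, the microsomal epoxide hydrolase, by 1.15. Cyb5b (−0.89), Cyb5r3 (−1.77), Ephx2 (−0.95) and Pgrmc2 (−1.55) fell. Cyb5a, the microsomal cytochrome b5, was called higher from 0.3 to 10 μg/kg (0.76 at 0.3, SE 0.09, edgeR adjusted p 1.29e-06) and not at 30 μg/kg (0.28, under the fold minimum).

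Among 17 receptors and transcription factors that act on Cyp2 genes, 1 rose and 9 fell at 30 μg/kg (all genes 23.2% and 18.9%). At 10 μg/kg 2 rose and 2 fell (all genes 13.6% and 8.13%). The 9 were Ppara (−1.87), Cebpa (−1.65), Foxa1 (−1.69), Foxa2 (−1.26), Foxa3 (−1.34), Nr1h4 (−0.81), Onecut1 (−3.05), Stat5b (−0.88) and Bcl6 (−2.14), all as log2 changes, and Cebpb rose by 0.89. Stat5b carries the growth hormone signal that sets sex-biased liver genes. The drug receptors CAR (Nr1i3, −0.37) and PXR (Nr1i2, −0.53), as well as Hnf4a (−0.36) and Ahr (0.56), were not called there, although Nr1i2 was below the vehicle range in all 5 mice and had an edgeR adjusted p of 0.000616 with a change under 1.5-fold. Nr1i3 was called higher at 1 μg/kg, where the mean went from 24.4 to 40.1 CPM (log2 change 0.72, SE 0.17, edgeR adjusted p 0.00675). Of 6 tested CAR and PXR targets outside the family 1 rose at 30 μg/kg (Gadd45b, 5.32) and 2 fell (Ces2a, −3.40, and Cyp3a11, −0.61).

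**Figure D5:**
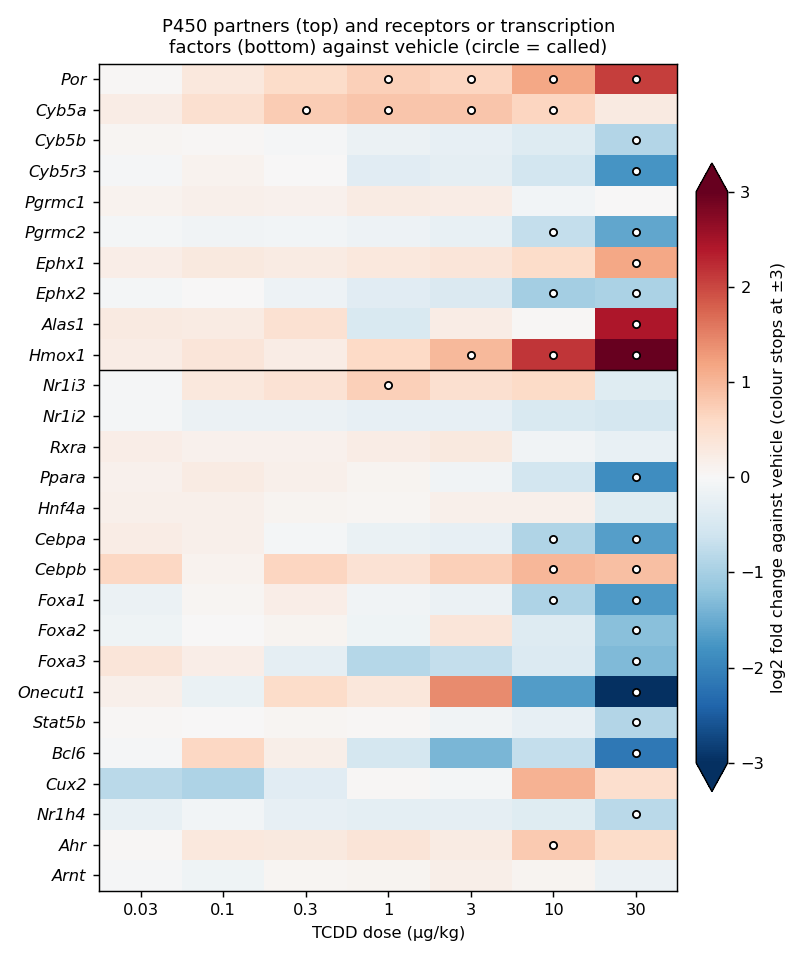
Heat map of the log2 change against vehicle (colour, stopping at −3 and 3) for the electron and haem partners of P450s (upper rows) and for the receptors and transcription factors (lower rows) at each TCDD dose in μg/kg (columns), 5 mice a group. Circles mark called changes. Por (2.07), Alas1 (2.42) and Hmox1 (3.84) are high at 30 μg/kg where Onecut1 (−3.05) and Bcl6 (−2.14) are low.

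Markers of place and of other cells moved at the same dose. Of the listed pericentral hepatocyte genes 2 of 8 rose and 3 fell (median log2 change 0.18), and of the periportal genes 0 of 7 rose and 5 fell (median −2.26), beside 23.2% of all genes higher and 18.9% lower. Of the 4 genes taken as markers of the family, Cyp2e1, Cyp2f2 and Cyp2c29 fell and Cyp2b10 was not called. Macrophage markers rose in 5 of 5 genes (summed 122 to 166 CPM in vehicle mice, 378 to 878 CPM at 30 μg/kg), stellate cell markers in 3 of 4 (113 to 167, then 319 to 686 CPM) and lymphocyte markers in 4 of 4 (4.79 to 10.8, then 26.4 to 38.1 CPM). Endothelial markers rose in 3 of 4 (87.0 to 123, then 142 to 210 CPM), and cholangiocyte markers rose in 3 of 4 with 1 lower (14.4 to 19.3, then 15.9 to 95.8 CPM, of which 95.8 was replicate 2 and the other 4 mice reached at most 21.7). The part of these cells in the Cyp2 results was not tested.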

How the data were processed

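Liver RNA of 40 male mice was sequenced as 150-base read pairs. The submitters' processing notes name Trimmomatic 0.39, FastQC 0.11.7 and STAR 2.7.3a, and list the builds GRCm39 and mm10 without saying which served for what. The authors deposited 1 table of gene counts per library, of which the unstranded read counts were used (the share of the first strand was 50.03% to 50.33%). They also deposited 1 table of normalized values on a log2 scale, which the authors made across all libraries and which entered limma as deposited.

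Rows that name no gene were left out: unmapped 2.47% to 11.28%, multimapping 5.24% to 7.43%, no feature 3.34% to 7.36% and ambiguous 4.84% to 5.90% of reads. Counts were scaled by TMM and fitted over all 8 groups with edgeR 4.0.16 in R 4.3.3 (quasi-likelihood test, filterByExpr with a minimum count of 10, Benjamini-Hochberg adjustment). Calls needed an adjusted p under 0.05 and a 1.5-fold change, and the trend over ordered doses only the former. Alternatives were RLE and total-count scaling, no filter, a mean of 50 counts, title-number runs as covariate or alone, the dose with vehicle alone, each mouse left out, DESeq2 1.42.0 and limma 3.58.1. Title-number runs (19 libraries with numbers up to 27, 21 from 28 on) are a reading of the titles and no labelled batch. The test was tested on simulated data. Values per mouse are CPM, read counts over the gene counts of the library times its TMM factor (0.868 to 0.965 in vehicle mice, 1.22 to 1.40 at 30 μg/kg). Shares of gene reads are without that factor. Levels between genes are CPM per kilobase of GENCODE M21 exons, merged over all transcripts of a gene. Spread is SD over 5 mice. Each mouse is a separate animal.

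By rule, values per mouse were given for Cyp2e1, Cyp2f2, Cyp2b10 and Cyp2c29, for up to 6 rises and 6 falls of largest change called at 30 μg/kg (a mean of at least 100 counts in the higher group, all 5 mice on one side of the vehicle mean), for members called at 1 μg/kg or below and for members that turned direction. Other members with such values were chosen after these were seen. The members and all gene lists were chosen with earlier results of these data known, and 2 listed genes are not reported here. Sequence came from the RefSeq table of GRCm38.p6 and was tied to genes by symbol only. Python 3.11.15, pandas 2.3.3, numpy 2.4.6 and matplotlib 3.10.9 were used.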

Additional observations from a re-analysis of the deposited data

Results flagged for a closer look

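Of 30 groups of 5 mice examined for members with values per mouse, 8 had 1 mouse far from the rest, with a gap to its neighbour of over 0.71 of the group's range. That limit is the critical value of Dixon's test for 5 samples. The groups are 15 members measured in the same mice and are not independent, so their count cannot be set against a chance rate. In 6 of the 8 groups the mouse set apart was replicate 1 at 30 μg/kg. It was the highest of its group for Cyp2b10 (42.1 CPM), Cyp2c29 (2113 CPM), Cyp2d40 (18.5 CPM), Cyp2c54 (139.8 CPM), Cyp2c23 (127.0 CPM) and Cyp2j5 (197.1 CPM). In the vehicle group the mouse set apart was replicate 2 for Cyp2a4 (14.6 CPM) and replicate 3 for Cyp2d40 (97.3 CPM). The cause was not tested.

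Some Cyp2 symbols outside the members had reads in a dose group and 3 or fewer over the vehicle mice. Cyp2j11 had 69 reads at 10 μg/kg, all in 1 mouse, and 0 in vehicle mice. Cyp2c65 had 13 reads at 0.03 μg/kg and 31 at 30 μg/kg, against 3 in vehicle mice. Cyp2b19, which lies in the chromosome 7 cluster between Cyp2a4 and Cyp2g1, had 35 reads in 4 mice at 30 μg/kg and 0 in vehicle mice. The pseudogenes Cyp2b27-ps and Cyp2a21-ps had 12 and 14 reads at 30 μg/kg, against 1 and 0 in vehicle mice.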

How the results depend on the processing

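No paired analysis was possible because the labels number no replicates and nothing ties a mouse of one group to a mouse of another. The call at 0.1 μg/kg went from 1 to 0 with total counts, with the title-number runs as covariate, within either run and by limma, and ranged from 0 to 1 with 1 mouse left out. At 0.3 μg/kg 0 members were called within the first run and 2 with vehicle and the dose fitted alone, against 1. At 1 μg/kg the count of 2 became 1 with a mean of 50 counts and within either run, 4 with the dose alone, and 1 to 2 with 1 mouse left out. At 3 μg/kg it was 1 within the first run, 2 within the second and 9 with the dose alone, against 4. At 10 μg/kg the first run gave 5 calls, 1 of them lower, against 14 and 9. At 30 μg/kg every alternative kept more members lower (18 to 27) than higher (4 to 7). DESeq2 gave 6 higher and 19 lower there, with no adjusted p for 5 members (Cyp2j5, Cyp2d26, Cyp2c54, Cyp2c50 and Cyp2c23).

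Total-count scaling moved the median log2 change of all genes at 30 μg/kg from 0.03 to 0.52. Signs turned only for uncalled members: with total counts Cyp2j6 was 0.26, Cyp2b10 0.082 and Cyp2d12 0.30, within the first run Cyp2b10 was 0.10, Cyp2d12 1.38 and Cyp2c39 −0.41, and with 1 mouse left out Cyp2d12 ranged from −1.08 to 0.49. With total counts Cyp2c39 was called (1.08). At 10 μg/kg Cyp2c67 lost its call without vehicle replicate 2, 3 or 4 or dose replicate 3 or 4 (−0.59 to −0.72), and at 30 μg/kg Cyp2d11 without vehicle replicate 3 (−1.50). The causes were not tested. Depth limits Cyp2b13, Cyp2g1, Cyp2c69, Cyp2d11, Cyp2d12 and Cyp2s1, which had few reads in at least 1 group.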

Other observations

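The 12 Cyp2 symbols under the minimum of 100 reads summed to 26 reads over the vehicle mice and 84 over the 30 μg/kg mice. The Cyp2 pseudogenes, 21 symbols in all, summed to 17772 reads in vehicle mice, 11864 at 10 μg/kg and 2972 at 30 μg/kg. Replicate 1 supplied 2132 of the last and each other mouse 108 to 363. Cyp2d37-ps (13558 reads in vehicle mice, 2146 at 30 μg/kg) and Cyp2d38-ps (3357 and 432) held most of them, and both lie with the Cyp2d genes in name. Cyp2c52-ps went the other way, from 9 to 64 reads. Reads of a pseudogene and of its parent genes may be exchanged by the counting, and none of these sums was tested.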
